A study of Mus musculus with 12 samples.

Results

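The desmosome genes described here are Dsp, Jup, Pkp1, Pkp2, Pkp3, Pkp4, Dsc2, Dsg2, Perp and Evpl, chosen by name, and all 10 were found by their Ensembl IDs among the 40384 genes of the table. They were followed in RNA-seq of 12 mouse libraries of the 4F2A line, in which doxycycline switches on transgenes for Oct4, Sox2, Klf4 and Myc, the factors that reprogram a cell to pluripotency. The groups, with n = 3 libraries each, were MEF (fibroblasts of male homozygous 4F2A embryos at midgestation), D4_DUX (cells at day 4 with the treatment OE-DUX, Dux overexpressed for 48 h), D4 (day 4 with OE-NC, its control) and iPSC (induced pluripotent stem cells). One culture text, with LIF at 1000 U/mL and doxycycline at 2 μg/mL, is attached to every sample, so the labels do not say which groups went without the drug. They give no separate cultures, clones or passage, and the p-values measure the spread between these libraries, which may be technical.

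Desmosomes are buttons of adhesion that join neighbouring epithelial or heart muscle cells and anchor their intermediate filaments. Desmocollins and desmogleins, the desmosomal cadherins, meet across the gap between cells. Plakoglobin (Jup) and the plakophilins, proteins with armadillo repeats, bind the cadherin tails, and desmoplakin (Dsp) ties this plaque to keratin filaments. Fibroblasts have few desmosomes, and early reprogramming of fibroblasts includes a change from mesenchymal to epithelial features.

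Depth was 22.5 to 28.1 M counted fragments per library, estimated from the deposited FPKM. FPKM are fragments scaled to gene length and to library depth, so members can be compared in level. Duxf3, the annotated Dux gene, had 0 FPKM in each of the 3 libraries labelled D4_DUX and stayed below a floor of 3 fragments in all 12 libraries, so the label is not borne out by the annotated gene and directions are those of the libraries labelled D4_DUX. All 10 pluripotency markers were at FPKM of at least 1 in iPSC (summed 1332 to 1479), and 0 of 10 in D4 (summed 0.608 to 0.855) or MEF (0.289 to 0.601). All 10 fibroblast markers were at FPKM of at least 1 in every group, with sums of 6033 to 6145 in MEF, 3983 to 4090 in D4 and 773 to 1006 in iPSC. Col1a1 was the largest part of the sums in MEF and D4. In D4 against MEF 7 of these markers were called lower and 3 higher (Thy1, Dcn and S100a4), against 27.6% and 34.2% of all genes tested. In bulk RNA, fewer cells of a type and less RNA per cell cannot be told apart. Values are FPKM with mean ± SD of n = 3, and every log2 fold change was taken after adding 1 to the FPKM, which understates the change of low genes. Tests are limma across 17114 genes, with Benjamini-Hochberg adjusted p.

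**Figure D1:**
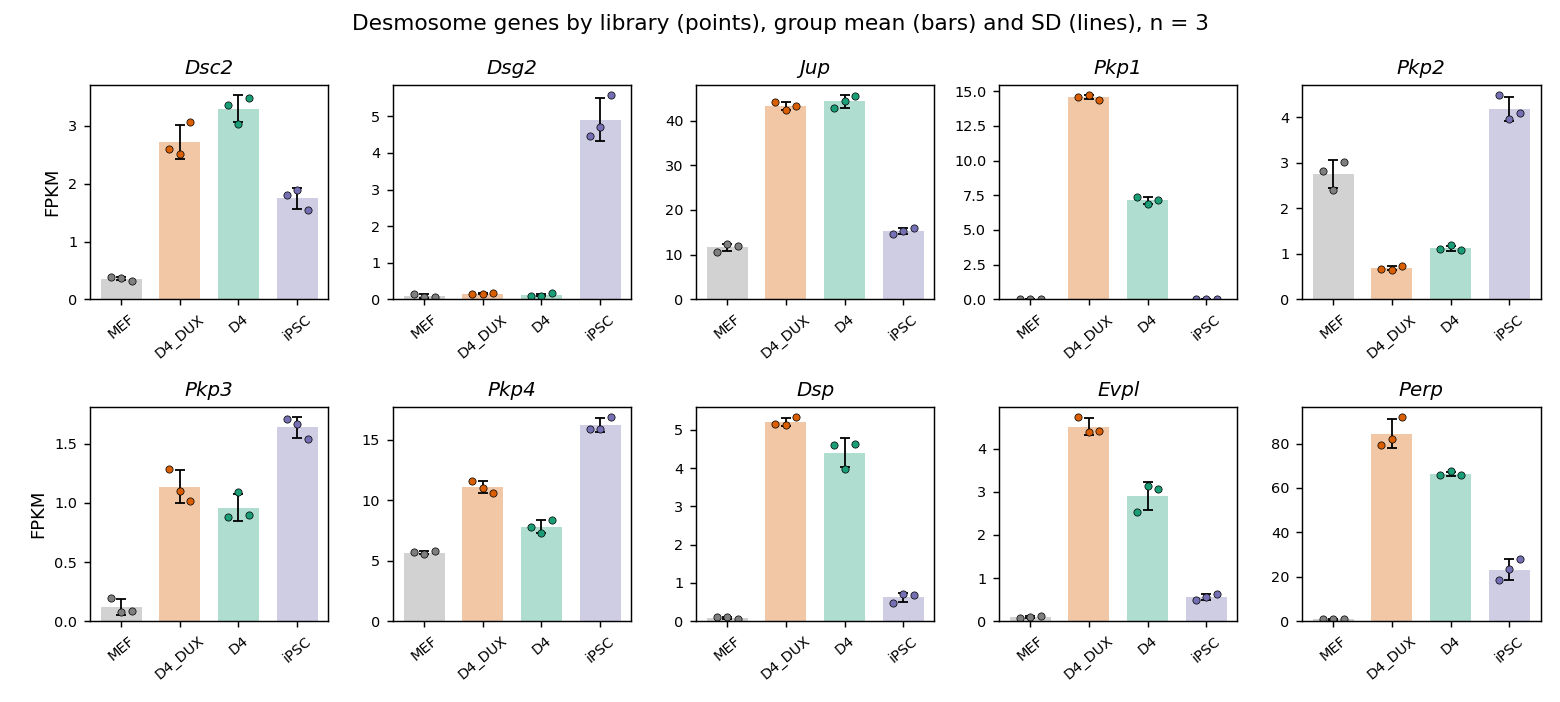
FPKM of the 10 desmosome genes in each library (points), with the group mean (bars) and SD (lines, n = 3), each gene on its own axis from 0. Dsp, Evpl, Perp, Jup, Pkp1 and Dsc2 are highest at day 4, while Dsg2, Pkp2, Pkp3 and Pkp4 are highest in iPSC.

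The comparison of D4 with MEF shows the desmosome genes at day 4 of reprogramming. Perp, Pkp1, Dsp, Evpl, Jup and Dsc2 rose by more than 1.5 on the log2 scale, Pkp3 and Pkp4 rose by less, Pkp2 fell, and Dsg2 did not pass the test. In all, 8 of the 10 rose and 1 fell, against 34.2% of all genes tested that rose and 27.6% that fell. The groups lay apart, with no overlap of libraries, for 8 members higher and 1 lower, against 36.7% and 29.8% of all genes. The median log2 fold change was 1.75 for the 10 members and 0.03 for all genes tested. All 10 passed the filter on low values, but Dsp, Pkp1 and Evpl did so only through the 6 day 4 libraries and Dsg2 only through the 3 iPSC libraries, so a difference of those groups is partly fixed by the filter.

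Of the cadherins, Dsc2 (desmocollin 2, ENSMUSG00000024331, chromosome 18, 20030633 to 20059554 in GRCm38) had 3.37, 3.04 and 3.49 FPKM in the D4 libraries, against 0.383, 0.375 and 0.323 FPKM in MEF. Every D4 library was above every MEF library, 1.66 higher on the log2 scale (SE 0.07, adjusted p = 2.81e-09). Its partner Dsg2 (desmoglein 2, ENSMUSG00000044393, chromosome 18, 20558074 to 20604521) had 0.0939, 0.102 and 0.164 FPKM in D4, against 0.152, 0.0631 and 0.0656 FPKM in MEF. The groups overlapped, and the log2 fold change was 0.04 (95% interval -0.12 to 0.19, adjusted p = 0.693). With 17.5 to 33.7 fragments of Dsg2 per D4 library, its level was low but above the floor of 3. Quantile normalization turned this small difference to -0.04.

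Among the armadillo proteins, Jup (plakoglobin, ENSMUSG00000001552, chromosome 11, 100368958 to 100397763), which also serves adherens junctions, had 42.8, 44.5 and 45.6 FPKM in D4, against 10.7, 12.3 and 11.9 FPKM in MEF. It rose by 1.84 (SE 0.05, adjusted p = 6.84e-11), and no library of the 2 groups overlapped. Pkp1 (plakophilin 1, ENSMUSG00000026413, chromosome 1, 135871395 to 135919207), known mainly from stratified epithelia such as epidermis, had 7.39, 6.9 and 7.17 FPKM in D4, against 0.0353, 0.0424 and 0.0212 FPKM in MEF. The MEF values rest on 3 to 5 fragments a library, at or just above the floor, while D4 libraries held 837 to 896.5 fragments, and the log2 fold change was 2.98 (SE 0.04, adjusted p = 3.91e-13). Pkp2 (plakophilin 2, ENSMUSG00000041957, chromosome 16, 16213318 to 16272712), the form of simple epithelia and heart, went the other way, with 1.11, 1.19 and 1.08 FPKM in D4, against 2.83, 2.41 and 3.01 FPKM in MEF. Its log2 fold change was -0.81 (SE 0.07, adjusted p = 6.47e-07), with every D4 library below every MEF library. Pkp3 (plakophilin 3, ENSMUSG00000054065, chromosome 7, 141078218 to 141090510), found in most epithelia, had 0.884, 1.09 and 0.9 FPKM in D4, against 0.196, 0.0765 and 0.0836 FPKM in MEF. Pkp4 (ENSMUSG00000026991, chromosome 2, 59160850 to 59355208), a relative also found at adherens junctions, had 7.81, 7.28 and 8.33 FPKM in D4, against 5.69, 5.52 and 5.77 FPKM in MEF. Both rose without overlap, Pkp3 by 0.81 (adjusted p = 8.98e-07) and Pkp4 by 0.40 (adjusted p = 2.29e-05).

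The plakins rose as well. Dsp (desmoplakin, ENSMUSG00000054889, chromosome 13, 38151294 to 38198577) had 4.61, 3.97 and 4.64 FPKM in D4, against 0.108, 0.0948 and 0.046 FPKM in MEF. Dsp rose by 2.32 on the log2 scale (SE 0.07, adjusted p = 1.23e-10). Without the added 1, its mean FPKM in D4 was 53.2 times that of MEF. Evpl (envoplakin, ENSMUSG00000034282, chromosome 11, 116220559 to 116238077), a plakin of the desmosome and of the cornified envelope of skin, had 2.53, 3.13 and 3.06 FPKM in D4, against 0.066, 0.09 and 0.109 FPKM in MEF. The groups were apart, 1.84 higher on the log2 scale (SE 0.07, adjusted p = 6.13e-10). Perp (ENSMUSG00000019851, chromosome 10, 18845020 to 18857073), a membrane protein that spans the membrane several times, is needed for desmosomes in mouse skin and is a target of p53 and p63. It had 65.7, 67.5 and 65.8 FPKM in D4, against 0.75, 0.753 and 0.92 FPKM in MEF. Its log2 fold change of 5.22 (SE 0.11, adjusted p = 1.34e-11) was the largest of the 10 members, and Perp became the member with the highest FPKM.

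Messages of other cell types moved beside these members. Of all genes tested, 34.2% rose and 27.6% fell in this comparison of D4 with MEF. Of the 10 macrophage markers all 10 fell, with sums of 181 to 216 FPKM in D4, against 1558 to 1606 in MEF. Most of the macrophage sum was Lyz2 in both groups, at 149 FPKM in D4. Of 8 mesothelial markers 7 rose, with sums of 413 to 439 FPKM in D4, against 9.39 to 9.92 in MEF, most of it Msln (mesothelin) at 340 FPKM in D4. Of 10 keratinocyte markers 4 could be tested and 3 rose, with sums of 43.4 to 46.1 FPKM in D4, against 2.37 to 2.7 in MEF. Krt14, Sfn and Ivl made up most of the keratinocyte sum at 20.3, 17.2 and 5.7 FPKM in D4, while Trp63, the master factor of epidermis, was at 0.0723 FPKM in D4 and Krt1 was listed at 0 in MEF. The mesothelial marker Upk3b and Krt14 passed the filter on low values only through the 6 day 4 libraries, so their rise is partly fixed by the filter. Muc16, another mesothelial marker, did so only through the libraries labelled D4_DUX. The 10 heart muscle markers summed to 2.18 to 2.79 FPKM in D4, against 1.78 to 1.93 in MEF, with Nkx2-5 listed at 0 in both groups. The 6 trophectoderm markers summed to 1.96 to 2.47 FPKM in D4, against 0.611 to 0.675 in MEF, with Cdx2 listed at 0 in both. The part of any of these cell types in the desmosome values was not tested.

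**Figure D2:**
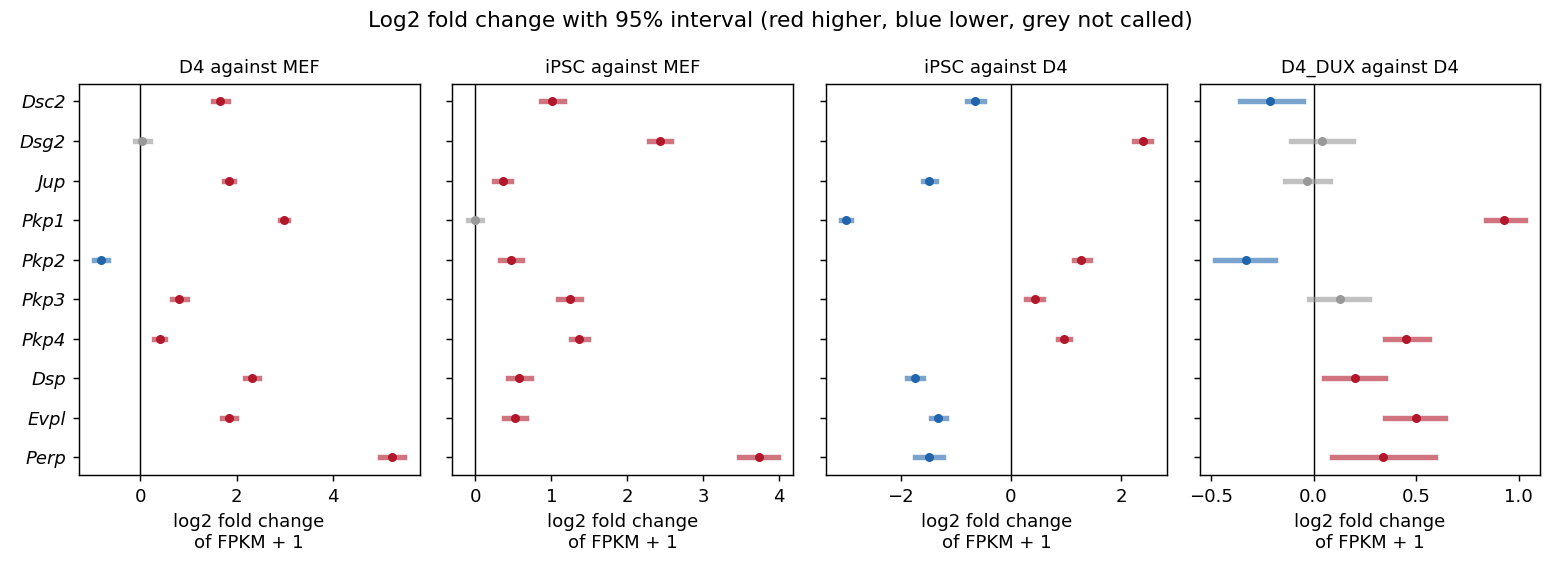
Log2 fold change of FPKM + 1 (points) with 95% interval (lines) for the 10 genes in 4 comparisons, coloured by the limma call, each panel with its own axis. Perp has the highest value in D4 against MEF (5.22), and Pkp1 the lowest in iPSC against D4 (-2.99).

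The comparison of iPSC with D4 asks which desmosome genes distinguish the pluripotent end point from the day 4 cultures. It shares the D4 libraries with the comparison above. Dsg2, Pkp2, Pkp4 and Pkp3 were higher in iPSC, and Pkp1, Dsp, Perp, Jup, Evpl and Dsc2 were lower. These are 4 of 10 higher and 6 of 10 lower, against 48.5% and 33.9% of all genes tested, and all of them lay apart, against 48.6% and 33.8% of all genes. The limit of the filter given above for Dsg2, Dsp, Pkp1 and Evpl applies to these directions too, and for Dsg2 also to iPSC against MEF. The median log2 fold change was -0.99 for the members and 0.16 for all genes. With quantile normalization the genes called became 6712 higher and 7664 lower, against 8293 and 5802 without it, and the median of all genes became -0.074, so the smallest differences depend on scaling.

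Dsg2 had 4.45, 4.7 and 5.58 FPKM in iPSC, at a mean of 4.91 ± 0.592 in iPSC, against 0.12 ± 0.0383 FPKM in D4. Each iPSC library held at least 884.5 fragments of Dsg2, and the log2 fold change was 2.40 (SE 0.07, adjusted p = 2.36e-11). Its antisense neighbour Gm16090 averaged 1.39 FPKM in iPSC and 0.0585 in D4. The library kit keeps the strand, per the labels, but the sources used here do not say if the counting used it, and without that, fragments shared with this neighbour cannot be told apart. Dsc2 had 1.8, 1.9 and 1.55 FPKM in iPSC, below every D4 library, and fell by 0.65 (adjusted p = 3.8e-06).

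Pkp2 had 4.49, 3.97 and 4.09 FPKM in iPSC, against a mean of 1.13 ± 0.0589 in D4, 1.28 higher on the log2 scale (SE 0.07, adjusted p = 3.33e-09). Pkp4 had 15.9, 15.9 and 16.9 FPKM in iPSC and rose by 0.97 (adjusted p = 3.22e-09). Pkp3 had 1.71, 1.67 and 1.54 FPKM in iPSC and rose by 0.43 (adjusted p = 8.85e-05, and adjusted p = 0.0788 with quantile normalization). Unlike these plakophilins, Pkp1 was near the floor. It had 0.0538, 0.0165 and 0.0152 FPKM in iPSC, or 2 to 6.5 fragments a library, and differed by -2.99 on the log2 scale (SE 0.04, adjusted p = 7.8e-14). Jup had 14.6, 15.4 and 15.9 FPKM in iPSC, below every D4 library, and fell by 1.48 (adjusted p = 8.88e-11).

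The plakins lay far below their day 4 levels. Dsp had 0.478, 0.697 and 0.684 FPKM in iPSC and fell by 1.74 on the log2 scale (SE 0.07, adjusted p = 3.01e-10). Evpl had 0.497, 0.555 and 0.638 FPKM in iPSC and fell by 1.32 (adjusted p = 2.58e-09). Perp had 18.3, 23.4 and 27.9 FPKM in iPSC, all below the D4 libraries, and fell by 1.49 (SE 0.11, adjusted p = 1.5e-07). Beside these changes the fibroblast markers fell in 10 of 10 cases. Of all genes tested, 33.9% were lower and 48.5% higher in iPSC against D4. The mesothelial markers were lower in 7 of 8, with sums of 8.89 to 10.1 FPKM in iPSC, against 413 to 439 in D4. Macrophage markers summed to 130 to 172 FPKM in iPSC, against 181 to 216 in D4, with 8 of 10 lower and 2 higher. Keratinocyte markers summed to 11.1 to 14.2 FPKM in iPSC, against 43.4 to 46.1 in D4. Trophectoderm markers summed to 12 to 13.6 FPKM in iPSC, against 1.96 to 2.47 in D4. Of the 6, 2 were tested, with Tfap2c higher (11.4 FPKM in iPSC, against 0.158 in D4) and Krt7 lower (0.0782 FPKM in iPSC, against 1.28 in D4), while Cdx2 was at 0.0607 FPKM in iPSC and listed at 0 in D4. Tfap2c passed the filter on low values only through the iPSC libraries and Krt7 only through the D4 libraries. The mesothelial marker Upk3b did so only through the day 4 libraries. The directions of Tfap2c, Krt7 and Upk3b are therefore partly fixed by the filter. Heart muscle markers summed to 3.88 to 4.14 FPKM in iPSC, against 2.18 to 2.79 in D4. The part of these cell types in the desmosome values was not tested.

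Set against MEF, with which the D4 comparison also shares its libraries, iPSC were higher in 9 of 10 members and lower in 0, against 51.0% and 31.2% of all genes tested. Without overlap of libraries 9 were higher and 0 lower, against 51.1% and 31.3% of all genes. At an unadjusted p under 0.05 limma gave no member lower either, while quantile normalization gave 1, Pkp1. The median log2 fold change was 0.79 for the members and 0.21 for all genes. Quantile normalization called 6609 genes higher and 7561 lower, against 8733 and 5335 without it, and put the median of all genes at -0.068. The largest were Perp (log2 fold change 3.73), Dsg2 (2.43), Pkp4 (1.37), Pkp3 (1.24) and Dsc2 (1.01), with adjusted p from 2.41e-11 to 6.11e-08. Dsp (0.58), Evpl (0.52), Pkp2 (0.47) and Jup (0.36) rose by less. With quantile normalization Dsp (0.03), Jup (0.11) and Evpl (-0.03) lost this call, with adjusted p of 0.649, 0.062 and 0.733. Pkp1 had a log2 fold change of -0.01 (95% interval -0.10 to 0.09, adjusted p = 0.892), and with quantile normalization -0.18 (adjusted p = 0.0019), at 2 to 6.5 fragments per iPSC library and 3 to 5 per MEF library.

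Whether Dux overexpression went with other desmosome levels at day 4 was asked by setting the libraries labelled D4_DUX against D4. Pkp1 rose most, Evpl and Pkp4 rose, while Pkp2 fell. Jup, Pkp3 and Dsg2 did not pass the test, and smaller differences of Perp, Dsp and Dsc2 depended on single libraries. In all 5 of 10 members were higher and 2 lower, against 20.1% and 15.4% of all genes tested. The groups lay apart for 5 members higher and 1 lower, against 28.5% and 21.9% of all genes, with a median log2 fold change of 0.17 for the members and 0.02 for all genes.

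Pkp1 had 14.6, 14.7 and 14.4 FPKM in the libraries labelled D4_DUX, against 7.39, 6.9 and 7.17 FPKM in D4. The spread within either group was small beside this gap, and the log2 fold change was 0.93 (SE 0.04, adjusted p = 1.4e-07). Evpl had 4.74, 4.38 and 4.42 FPKM in the libraries labelled D4_DUX, against 2.53, 3.13 and 3.06 FPKM in D4, which was 0.50 higher on the log2 scale (SE 0.07, adjusted p = 0.000187). Pkp4 had 11.6, 11 and 10.6 FPKM in the libraries labelled D4_DUX, against 7.81, 7.28 and 8.33 FPKM in D4, which was 0.45 higher on the log2 scale (SE 0.05, adjusted p = 4.89e-05). For all of these genes the groups lay apart. Pkp2 was the member that fell without overlap, at 0.677, 0.649 and 0.741 FPKM in the libraries labelled D4_DUX, against 1.11, 1.19 and 1.08 FPKM in D4 (log2 fold change -0.33, SE 0.07, adjusted p = 0.00242).

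Perp had 79.4, 82.1 and 92 FPKM in the libraries labelled D4_DUX, against 65.7, 67.5 and 65.8 FPKM in D4. The log2 fold change of 0.34 (SE 0.11, adjusted p = 0.0381) lost its call without any one of the 6 libraries, with adjusted p of 0.0528 to 0.132, the highest without D4_DUX replicate 3. Dsp had 5.16, 5.14 and 5.34 FPKM in the libraries labelled D4_DUX, against 4.61, 3.97 and 4.64 FPKM in D4 (log2 fold change 0.20, adjusted p = 0.0376). This call ended without D4_DUX replicate 1 (adjusted p = 0.0778), 2 (0.0729) or 3 (0.105) and without D4 replicate 2 (0.136). Dsc2 had 2.6, 2.52 and 3.06 FPKM in the libraries labelled D4_DUX, against 3.37, 3.04 and 3.49 FPKM in D4, and the groups overlapped (log2 fold change -0.21, adjusted p = 0.0403). It lost its call without D4_DUX replicate 1 (adjusted p = 0.121) or 2 (0.137) and without D4 replicate 1 (0.105) or 3 (0.125).

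Jup was at 43.3 ± 0.879 FPKM in the libraries labelled D4_DUX and 44.3 ± 1.4 FPKM in D4, with a difference of -0.03 on the log2 scale (95% interval -0.14 to 0.08, adjusted p = 0.662). Pkp3 was at 1.14 ± 0.137 FPKM in the libraries labelled D4_DUX and 0.958 ± 0.115 FPKM in D4 (0.13, 95% interval -0.02 to 0.27, adjusted p = 0.173). Dsg2 stayed low, at 0.135 to 0.168 FPKM in the libraries labelled D4_DUX and 0.0939 to 0.164 FPKM in D4 (0.04, 95% interval -0.11 to 0.19, adjusted p = 0.716). Beside these values all 10 macrophage markers were lower, with sums of 45 to 46 FPKM in the libraries labelled D4_DUX, against 181 to 216 in D4. Of all genes tested, 20.1% were higher and 15.4% lower in this comparison. Fibroblast markers summed to 3455 to 3511 FPKM in the libraries labelled D4_DUX, against 3983 to 4090 in D4, with 5 of 10 lower and 2 higher. Mesothelial markers summed to 596 to 609 FPKM in the libraries labelled D4_DUX, against 413 to 439 in D4, with 7 of 8 higher. Of these, Muc16 passed the filter on low values only through the libraries labelled D4_DUX, so its direction is partly fixed by the filter. Keratinocyte markers summed to 65.3 to 76.4 FPKM in the libraries labelled D4_DUX, against 43.4 to 46.1 in D4, with 1 of the 4 tested higher and 1 lower. These keratinocyte counts and the 2 fibroblast markers higher are near the shares of all genes. The part of these cell types in the desmosome values was not tested.

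The make-up of each protein family differed between the groups. Pkp1 was 0.39 ± 0.144% of the summed plakophilin FPKM in MEF, 53.1 ± 1.06% in the libraries labelled D4_DUX, 42 ± 0.986% in D4 and 0.129 ± 0.099% in iPSC. Pkp2 was 32.1 ± 1.97% of that sum in MEF, 2.51 ± 0.219% in the libraries labelled D4_DUX, 6.63 ± 0.555% in D4 and 19 ± 1.19% in iPSC. Pkp4 held 66.2 ± 2.08% of it in MEF, 40.3% in the libraries labelled D4_DUX, 45.8 ± 1.75% in D4 and 73.5 ± 1.65% in iPSC. Pkp4 led the family in MEF and iPSC, and Pkp1 stood above it in the libraries labelled D4_DUX and close to it in D4.

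The leading desmosomal cadherin also differed. Of the summed FPKM of 8 desmocollins and desmogleins, Dsg2 held 70.4 ± 4.09% in iPSC, against 3.34 ± 0.89% in D4, and Dsc2 held 25.3 ± 3.82% in iPSC, against 92.4 ± 0.757% in D4. The ratio of Dsc2 to Dsg2 FPKM was 2.52 to 5.95 in MEF, 17.5 to 18.6 in the libraries labelled D4_DUX, 21.3 to 35.9 in D4 and 0.278 to 0.404 in iPSC. Summed over 5 desmoglein genes the FPKM were 0.0934 ± 0.0504 in MEF, 0.337 ± 0.0393 in the libraries labelled D4_DUX, 0.183 ± 0.0405 in D4 and 4.95 ± 0.577 in iPSC. Dsg3, the desmoglein of stratified epithelia, averaged 0.147 FPKM in the libraries labelled D4_DUX and 0.0562 in D4, too low to be tested. The 8 genes lie in a cluster of 644 kb on chromosome 18 (19960930 to 20604521), in the order Dsc3, Dsc2, Dsc1, Dsg1a, Dsg1b, Dsg4, Dsg3, Dsg2. Only Dsc2 and Dsg2, 499 kb apart, reached FPKM of 1 in any library, and the highest value of the other 6 genes was 0.322 FPKM, that of Dsc3 in iPSC.

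**Figure D3:**
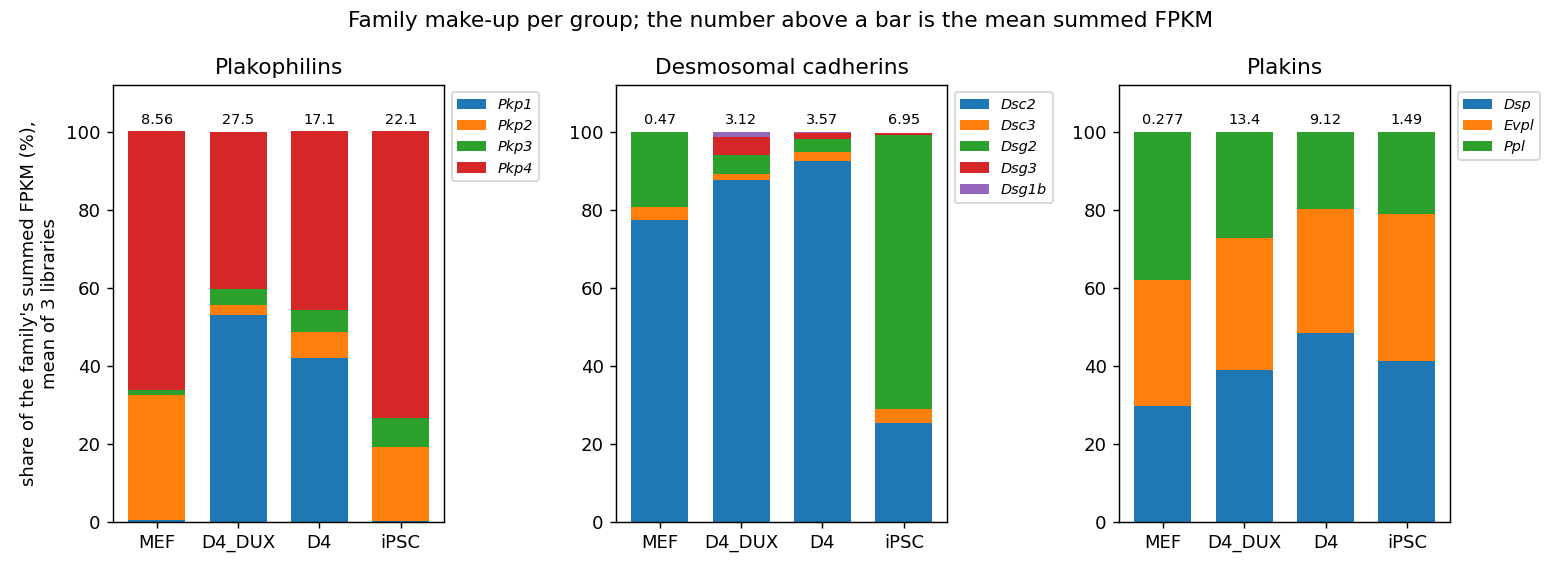
Mean share of each gene in the summed FPKM (%) of the plakophilins, the desmosomal cadherins (5 of 8 genes drawn) and the plakins Dsp, Evpl and Ppl, per group (n = 3), with the mean summed FPKM above each bar. Pkp1 appears at day 4 and is near 0 in MEF and iPSC, and Dsg2 takes 70.4% of the cadherin sum in iPSC.

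The plakins were summed as well. Dsp, Evpl and Ppl (periplakin, the partner of envoplakin) summed to 0.277 ± 0.0255 FPKM in MEF, 13.4 ± 0.251 in the libraries labelled D4_DUX, 9.12 ± 0.319 in D4 and 1.49 ± 0.17 in iPSC. Dsp was 29.7 ± 10.8% of this sum in MEF, 39 ± 1.04% in the libraries labelled D4_DUX, 48.3 ± 3.42% in D4 and 41.3 ± 4.65% in iPSC. Ppl was 37.8 ± 8.01% of it in MEF, 27.3 ± 0.181% in the libraries labelled D4_DUX, 19.7 ± 0.907% in D4 and 21 ± 4.07% in iPSC. Jup exceeded Dsp in FPKM in every library, by 99.3 to 259 times in MEF, 8.12 to 11.2 times in the 6 day 4 libraries and 22.1 to 30.5 times in iPSC. Across the members the order of the groups fell into kinds. Dsp, Evpl and Perp ran D4_DUX, D4, iPSC, MEF from high to low with no neighbouring groups overlapping. Jup and Dsc2 ran D4, D4_DUX, iPSC, MEF, with D4 and D4_DUX overlapping. Pkp4 and Pkp3 ran iPSC, D4_DUX, D4, MEF, with overlap of D4_DUX and D4 for Pkp3 only. Dsg2 ran the same way, but D4_DUX overlapped D4 and D4 overlapped MEF. Pkp2 ran iPSC, MEF, D4, D4_DUX with no overlap, and Pkp1 ran D4_DUX, D4, MEF, iPSC with overlap of MEF and iPSC.

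The sequences before the starts of Dsp, Jup and Pkp4 are shown, the only 3 of the 10 members with an entry in the promoter table. This RefSeq table of GRCm38.p6 runs from 250 bases before to 50 bases after a start. Dsp and Jup were highest at day 4 and Pkp4 in iPSC, and a link of the motifs to these levels was not tested. Capitals mark matches, on either strand, to GGGCGG (GC box), CCACCC (a Klf motif) and CACCTG (an E-box known from Zeb and Snail factors). The windows are chr13:38151044-38151343 on the plus strand for Dsp, chr11:100397741-100398040 on the minus strand for Jup and chr2:59160600-59160899 on the plus strand for Pkp4.
Dsp: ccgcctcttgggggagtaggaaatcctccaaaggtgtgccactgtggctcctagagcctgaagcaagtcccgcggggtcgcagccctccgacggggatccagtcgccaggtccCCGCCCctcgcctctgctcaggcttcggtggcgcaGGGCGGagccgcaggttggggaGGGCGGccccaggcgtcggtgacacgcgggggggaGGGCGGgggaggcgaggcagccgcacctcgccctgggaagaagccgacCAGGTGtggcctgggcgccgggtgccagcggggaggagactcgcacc
Jup: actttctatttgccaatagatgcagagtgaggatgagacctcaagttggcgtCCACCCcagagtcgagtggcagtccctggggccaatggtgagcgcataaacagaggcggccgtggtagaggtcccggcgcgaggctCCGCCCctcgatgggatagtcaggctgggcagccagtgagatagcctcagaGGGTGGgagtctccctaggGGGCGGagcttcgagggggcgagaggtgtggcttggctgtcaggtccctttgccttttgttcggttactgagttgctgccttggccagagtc
Pkp4: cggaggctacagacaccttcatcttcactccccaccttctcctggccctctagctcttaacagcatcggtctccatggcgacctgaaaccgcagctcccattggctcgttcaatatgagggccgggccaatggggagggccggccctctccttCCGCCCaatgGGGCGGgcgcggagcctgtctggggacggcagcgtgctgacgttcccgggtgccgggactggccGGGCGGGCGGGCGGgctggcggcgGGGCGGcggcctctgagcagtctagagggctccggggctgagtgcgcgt
The GC box was found 4 times in the Dsp window, 2 times in Jup and 6 times in Pkp4, where 2 pairs of matches overlap each other, and 35.6% of 32817 RefSeq windows of 300 bases hold it. The E-box was found 1 time in Dsp and in 0 of these windows of Jup and Pkp4, against 20.2% of all windows. Jup alone of the 3 held the Klf motif, 2 times, against 31.5% of all windows. No match of one motif overlapped that of another. AACCGGTT (a grainyhead-like motif, 0.146% of all windows) and TGANTCA (AP-1, 7.81%) were searched and not found in these windows. GC content was 73.0%, 60.7% and 69.3% for Dsp, Jup and Pkp4, against a median of 52.7% over all windows. A second Pkp4 window of the table, at chr2:59161619-59161918, held 1 E-box and 0 GC boxes. GENCODE M21 gives other starts for Jup, and 0 of its transcripts hold the last 40 bases of the window.

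Other genes of the pathway were followed as lists, whose counts stand against the shares of all genes tested that rose and fell, 34.2% and 27.6% in D4 against MEF and 20.1% and 15.4% in the libraries labelled D4_DUX against D4. Ppl and Krt14 passed the filter on low values only through the 6 day 4 libraries. Krt7 did so only through the 3 D4 libraries, and Grhl2 only through the 3 iPSC libraries. The differences of these genes between those groups and the others are partly fixed by the filter. Of 9 further desmosome genes 8 were in the table and 2 were tested. Ppl rose, at 1.8 ± 0.0267 FPKM in D4, against 0.106 ± 0.0293 in MEF (log2 fold change 1.34, adjusted p = 2.99e-10). It was at 3.65 ± 0.0686 FPKM in the libraries labelled D4_DUX, against 1.8 ± 0.0267 in D4 (0.73, adjusted p = 8.03e-07). Cdsn, a protein of the desmosomes of cornified skin, was at 2.18 ± 0.184 FPKM in the libraries labelled D4_DUX, against 1.01 ± 0.114 in D4 (0.66, adjusted p = 0.000209). Against the 0.888 ± 0.201 FPKM of MEF, Cdsn in D4 overlapped and did not pass the test (0.09, adjusted p = 0.38).

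The filaments that desmosomes anchor included Krt14, a keratin of basal epidermis, at 20.3 ± 1.81 FPKM in D4, against 0.0599 ± 0.0531 in MEF (log2 fold change 4.33, adjusted p = 8.08e-12). In iPSC Krt14 was at 0.0925 ± 0.0979 FPKM. Of 7 filament genes tested 5 rose and 0 fell in D4 against MEF, with a median log2 fold change of 0.90. In the libraries labelled D4_DUX against D4 4 rose and 2 fell, with Krt8 (1.66), Krt14 (1.25) and Krt19 (1.23) higher and Des, the desmin of muscle, lower (-1.02), with adjusted p from 5.36e-07 to 1.64e-05. The keratins did not all rise, since Krt7 was the other gene that fell (-0.28, adjusted p = 0.00456). Krt18 was lower without overlap but did not pass the test (-0.24, adjusted p = 0.0576). Vim, the vimentin filament of mesenchymal cells, was at 163 ± 14.6 FPKM in iPSC, against 552 ± 21 in D4.

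Hemidesmosomes, which anchor keratins to the matrix through integrin α6β4, were followed through 5 genes. All 4 tested genes rose in D4 against MEF, Dst with overlapping groups, with Itgb4 at 72.6 ± 3.7 FPKM in D4, against 0.374 ± 0.0297 in MEF (log2 fold change 5.74, adjusted p = 1.46e-14). Itga6 was at 25 ± 0.66 FPKM in D4, against 2.66 ± 0.132 in MEF (2.83, adjusted p = 5.33e-13). In iPSC Itgb4 was at 1.94 ± 0.205 FPKM. In the libraries labelled D4_DUX against D4 3 of 4 rose, led by Itgb4 (0.49), and Itga6 fell (-0.28).

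In the adherens junction list Cdh1, E-cadherin, was at 69.4 ± 4.86 FPKM in iPSC, against 2.64 ± 0.128 in D4 (log2 fold change 4.27, adjusted p = 9.25e-14). In D4 against MEF 4 of 7 genes of this list rose, led by Cdh1 (1.68) and Arvcf (1.46), a relative of the plakophilins. The 2 that fell are near the share of all genes (27.6%). Ctnnb1, beta-catenin and the closest relative of plakoglobin, exceeded Jup in FPKM by 7.62 to 8.69 times in MEF, 2.23 to 2.36 times in D4 and 8.11 to 8.97 times in iPSC.

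Of the 12 factors known upstream of desmosome or epithelial genes, 10 were tested. In D4 against MEF 3 rose and 3 fell, near the shares of all genes (34.2% and 27.6%). Klf4, also a transgene factor, was at 98 ± 2.49 FPKM in D4, against 9.41 ± 1.06 in MEF, and Snai1, a repressor of epithelial genes, was at 22 ± 3.07 FPKM in D4, against 39.7 ± 0.828 in MEF. Grhl2, an activator of epithelial junction genes, was at 11.5 ± 0.516 FPKM in iPSC, against 0.00467 ± 0.00468 in D4 (log2 fold change 3.63, adjusted p = 2.79e-14). Trp53, a factor upstream of Perp, was at 85.6 ± 3.29 FPKM in iPSC, against 27.4 ± 1.61 in D4 (1.61, adjusted p = 9.18e-12), where Perp itself was lower in iPSC. Against MEF, both Trp53 (1.58) and Perp (3.73) were higher in iPSC. A link between Trp53 and Perp levels was not tested.

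**Figure D4:**
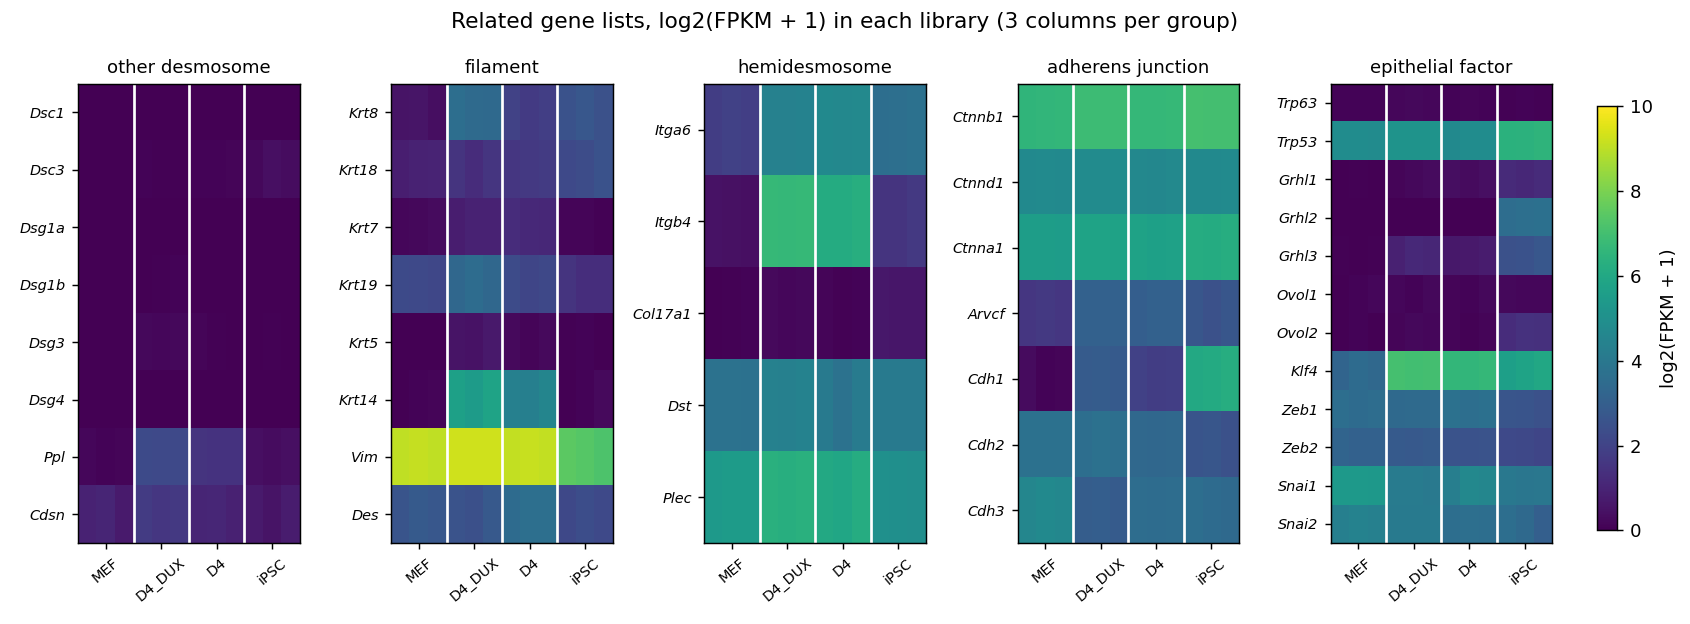
Colour gives log2(FPKM + 1) of the listed genes in each library, 3 columns per group. Krt14, Itgb4 and Ppl are brightest at day 4, whereas Cdh1 and Grhl2 are brightest in iPSC.

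The genes most like Dsp over the 12 libraries, by the root mean square difference of log2(FPKM + 1) after centring each gene, were Arhgef3 (0.111), Ugt1a6b (0.115), Als2cl (0.119), Ctnnd2 (0.124) and Gda (0.136), among 13185 protein coding genes. Ugt1a6b shares exons with its neighbours in the Ugt1a cluster, so its counts are uncertain. Ctnnd2, another armadillo protein related to the plakophilins, was at 3.97 ± 0.0858 FPKM in D4, against 0.186 ± 0.0402 in MEF, and at 0.519 ± 0.115 in iPSC. Among the members the nearest to Dsp were Evpl (0.207) and Jup (0.279) and the farthest Dsg2 (1.773) and Pkp2 (1.688). Those nearest to Perp were Podxl (0.627), Aqp3 (0.719), Klf4 (0.803), Hist1h4m (0.814) and Tek (0.832). The measure is not scaled to the range of a gene, so the values for Dsp and for Perp cannot be compared in closeness. Among the members Dsp overlaps a reverse-strand neighbour, Gm10129, which averaged 0.497 FPKM in D4 and 0.00539 in MEF. The strand limit given for Dsg2 applies to Dsp as well. Pkp1 overlaps Gm36938 on its own strand, so strand cannot separate their fragments. In iPSC Gm36938 averaged 0.0102 FPKM and Pkp1 0.0285, and in D4 0.0199 and 7.16.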

How the data were processed

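Polyadenylated RNA of 12 libraries was sequenced as stranded paired-end reads, per the labels' protocols. The authors deposited FPKM per Ensembl gene, and the build is mm10 per the submitters' processing notes. The sources used here name no aligner, counter or annotation (not given in the sources used here). Symbols, positions and union exon lengths came from GENCODE M21 (GRCm38), which 99.6% of IDs matched. FPKM times exon length fell in steps of a constant per library (43.6 to 45.4% of low values were whole multiples within 0.01 of a step), which gave the depth and the fragments as estimates, since the other values were not whole. Floors of 3 fragments cover counting error only.

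A gene was tested if 3 or more libraries reached 1 FPKM, as log2(FPKM + 1) with limma 3.58.1 in R 4.3.3, with 4 group means fitted to all 12 libraries, a variance prior that follows mean expression, and calls at an adjusted p under 0.05. The fit was also run on simulated data with independent noise and known changes in D4_DUX, none of them in genes of low FPKM. That run does not bear on the calls of low members. The replicate numbers pair no cultures in the labels, so no block was used. Members, lists and tests were chosen with earlier results of these data known. Named genes are the members and, per list and comparison, genes among the 4 with the smallest adjusted p. Dsg3, Krt7, Krt18 and the marker genes were named after their values were seen. Lists of markers are given as counts and sums.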

Additional observations from a re-analysis of the deposited data

How the results depend on the processing

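Of 694 values of single members under the alternatives, 653 kept their direction and call, 35 lost the call, 1 gained it and 5 turned sign. For the libraries labelled D4_DUX against D4, the members higher fell to 3, against 5, with a pseudocount of 0.1, no filter, median-ratio scaling or quantile normalization, and the members lower fell to 1, against 2, with a pseudocount of 0.1 or 0.5, no filter, rescaling to TPM or only the groups compared. Leaving out a library gave 3 to 4 higher and 1 to 2 lower. A filter at FPKM of at least 5 left 5 members to test, and gave 0 lower in this comparison, 5 higher and 0 lower in D4 against MEF, 1 higher in iPSC against D4 and 4 higher in iPSC against MEF. Quantile normalization gave 1 lower in iPSC against MEF (Pkp1). The turned signs were those of Dsg2 in D4 against MEF (-0.04) and Evpl in iPSC against MEF (-0.03) with quantile normalization, and of Pkp1 in iPSC against MEF, at 0.00 without iPSC replicate 2 or 3 or MEF replicate 2, within a range of -0.02 to 0.00 over the libraries left out. Leaving out a library gave 3 to 4 higher in iPSC against D4 and 8 to 9 in iPSC against MEF, with the 3 and the 8 where an iPSC library was left out and Dsg2 was no longer tested. Over all genes, no filter called 13205 higher in iPSC against D4 and 13594 in iPSC against MEF, and FPKM of at least 5, with fewer genes tested, 5183 and 5570, and 3087 lower in D4 against MEF, against 8293, 8733 and 4720. Other causes were not tested.

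With the replicate number as a block (replicate block), the libraries labelled D4_DUX had 4 members higher and 1 lower than D4, with adjusted p of 0.0621 for Dsp and 0.0683 for Dsc2, and the counts of the other comparisons were the same. Same-numbered libraries did not deviate together (r -0.146 to 0.062), so they share only a number. Pkp1 in MEF and iPSC, at 2 to 6.5 fragments a library, is where depth limits the values most.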
